A study of Mus musculus with 12 samples.

Results

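Transcripts of 9 voltage-gated sodium channel subunits, Scn1a, Scn2a, Scn3a, Scn7a, Scn8a, Scn9a, Scn2b, Scn3b and Scn4b, were measured in the organ of Corti of mice lacking clarin-1, clarin-2 or both. The members were taken by gene symbol from the 55348 genes of the count tables, and all 9 passed the filter on low counts. Bulk RNA-sequencing was performed on 12 libraries from mice at postnatal day 21, with 3 libraries for each of 4 genotypes: wild-type, Clrn1-/-, Clrn2-/- and Clrn1-/-Clrn2-/-. In Clrn1-/- mice the floxed exon 4 had been deleted in all tissues from the embryo on by a PGK-cre, and Clrn2-/- mice carried the clarinet nonsense mutation, homozygous and constitutive. The double mutants came from crossing both lines, and the wild-type mice from their own breedings, so that breeding and genotype cannot be told apart against wild-type. The organ of Corti was dissected free of the stria vascularis and the modiolus. The study's methods give a minimum number of litters per genotype but not which animals or litters went into which library. The p-values thus measure the spread between these libraries, whatever its source. Counts on genes ranged from 30008679 to 41049302 per library and the ranges of the 4 genotypes overlapped.

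A voltage-gated sodium channel is a large alpha subunit that forms the pore and senses voltage, joined by small beta subunits that set gating and anchor the channel at the membrane. In the cochlea such channels start and carry the action potentials of the primary auditory neurons, where Nav1.6, the product of Scn8a, gathers at the axon initial segments, heminodes and nodes of Ranvier, whereas mature inner hair cells signal with graded potentials. Scn7a is the odd member, since its product, Nax, responds to the extracellular sodium level rather than to voltage and is known from glia and other non-neuronal cells.

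The genotypes were checked first. Clrn1 lay between 1.77 and 3.04 CPM, reads scaled to the TMM-adjusted size of the library, in the 6 libraries without clarin-1 and between 23.8 and 31.5 CPM in the other 6, and Clrn2 fell from 1.89 to 3.24 CPM in wild-type to 1.04 to 1.38 CPM in Clrn2-/- libraries. Clrn2 was also low in Clrn1-/- libraries, at 0.854 to 1.04 CPM, which is a log2 difference of -1.57 from wild-type with an adjusted p of 7.41e-05 (edgeR). In the double mutants it was 0.921 to 1.18 CPM. The Clrn2 level therefore set wild-type apart from the mutants, but it cannot check which mutant libraries carry the Clrn2 mutation. Of the cell type markers, the 21 neuron markers summed to between 12504 and 20205 CPM and the 10 markers of myelinating Schwann cells to between 15979 and 17796 CPM, against 466 to 638 CPM for the 10 hair cell markers and 2.23 to 4.33 CPM for the 8 skeletal muscle markers.

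The reference sequence just ahead of 3 subunit genes is shown because these genes moved in different ways: Scn8a fell, Scn7a rose, and Scn1a shares its start region with a non-coding antisense gene that bears on a later result. Each stretch holds the 250 bases before the RefSeq start on GRCm38.p6, written 5' to 3' on the strand of the gene, with every CG dinucleotide in capitals. The positions are chr15:100870395-100870644 on the plus strand for Scn8a, and chr2:66784911-66785160 and chr2:66440838-66441087, both on the minus strand, for Scn7a and Scn1a.
Scn8a: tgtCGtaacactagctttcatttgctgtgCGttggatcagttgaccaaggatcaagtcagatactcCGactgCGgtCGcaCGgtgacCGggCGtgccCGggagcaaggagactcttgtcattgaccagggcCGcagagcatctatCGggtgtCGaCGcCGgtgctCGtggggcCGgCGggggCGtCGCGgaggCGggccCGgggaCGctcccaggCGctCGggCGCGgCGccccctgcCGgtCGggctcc
Scn7a: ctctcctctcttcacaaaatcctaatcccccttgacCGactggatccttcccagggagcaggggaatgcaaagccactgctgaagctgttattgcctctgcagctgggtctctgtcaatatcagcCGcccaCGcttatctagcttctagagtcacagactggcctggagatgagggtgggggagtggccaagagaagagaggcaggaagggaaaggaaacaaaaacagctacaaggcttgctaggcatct
Scn1a: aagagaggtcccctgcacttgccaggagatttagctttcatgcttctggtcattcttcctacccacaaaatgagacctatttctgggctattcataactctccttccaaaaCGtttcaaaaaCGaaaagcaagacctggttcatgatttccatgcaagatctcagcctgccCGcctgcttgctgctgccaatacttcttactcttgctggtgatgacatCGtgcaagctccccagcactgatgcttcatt
The Scn8a window holds 30 CG dinucleotides at 68% GC, which puts it at percentile 94.8 of all 32851 RefSeq windows of this length for CG count. The window of Scn4b, the abundant beta subunit, holds 23 at 66% GC, at percentile 88. The windows shown for Scn7a and Scn1a hold 3 and 4, below the median of 6 over all windows. RefSeq windows were found for 7 of the 9 members, 9 windows in all, and the other 6 windows, those of Scn2a, Scn9a, Scn2b and Scn4b and a later start of Scn8a, include the Scn4b window and otherwise hold between 1 and 9. A TATA box, searched as TATAAA on both strands, was present in 12.4% of all windows and, among the members, in 1 of the 2 windows of Scn2a. A GC box, searched as GGGCGG on both strands, was present in 32.7% of all windows and, among the members, in that of Scn7a alone. These matches describe letters in a window and were not tested against expression.

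In wild-type tissue the subunits spanned more than 2 orders of magnitude. On a scale of CPM per kilobase of exon, which allows genes of different length to be compared, Scn4b led with 108 ± 8.06 (SD, n = 3), followed by Scn8a with 22.5 ± 0.399 and Scn1a with 13.5 ± 1.16. Scn2b stood at 3.72 ± 0.403, Scn7a at 1.71 ± 0.164, Scn2a at 1.02 ± 0.0789 and Scn3b at 0.606 ± 0.0513 CPM per kilobase. Scn9a, at 0.285 ± 0.0246, and Scn3a, at 0.26 ± 0.0138 CPM per kilobase, ended the order and overlapped each other. In Clrn1-/-Clrn2-/- libraries the order of the means was the same, but Scn8a, at 13.5 ± 0.167, had come down close to Scn1a, at 11.9 ± 0.403, and Scn7a, at 2.92 ± 0.223, up toward Scn2b, at 3.58 ± 0.329 CPM per kilobase. Scn2a and Scn3b, which were apart in wild-type, overlapped in the double mutants, where Scn3b spanned 0.593 to 0.852 and Scn2a 0.78 to 0.861 CPM per kilobase. The tissue thus held 2 abundant alpha subunits and 1 abundant beta subunit among the 9, with the remaining 6 far below.

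**Figure D1:**
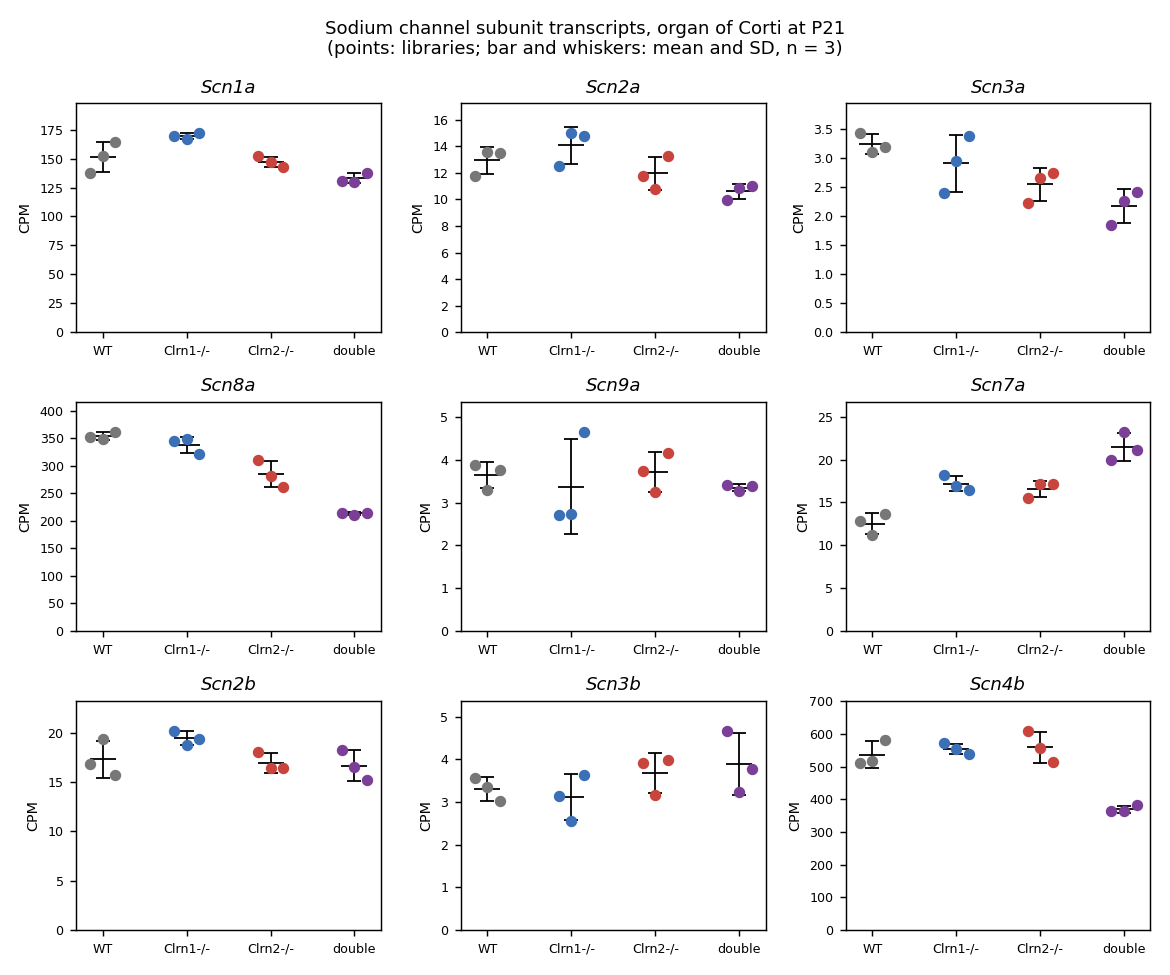
CPM of each of the 9 subunits (vertical axis from 0, each panel with its own scale) in the 3 libraries of wild-type (WT), Clrn1-/-, Clrn2-/- and Clrn1-/-Clrn2-/- (double) organ of Corti; points are libraries, and the bar and whiskers give the mean and SD. Scn8a steps down from a wild-type mean of 354 to 285 in Clrn2-/- and 213 in the double mutants, Scn4b is lowest in the double mutants (369 against 537 in wild-type), and Scn7a rises in all mutants.

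Scn8a, on chromosome 15 from 100869858 to 101045938 (GRCm38, plus strand), encodes Nav1.6, the main channel of mature nodes of Ranvier. Its level was 353, 348 and 361 CPM in wild-type libraries and 344, 349 and 322 CPM in Clrn1-/- libraries. It was 310, 282 and 262 CPM in Clrn2-/- libraries and 215, 210 and 215 CPM in Clrn1-/-Clrn2-/- libraries. The wild-type and Clrn1-/- values overlapped, every Clrn2-/- library lay below both, and every double mutant library lay below all others. Scn8a fell 1.66-fold in the double mutants against wild-type (log2 fold change -0.73, SE 0.054, adjusted p = 5.08e-08, edgeR), by more than the 1.5-fold required for a call. In Clrn2-/- libraries the change was smaller than 1.5-fold, with a log2 fold change of -0.31 (SE 0.0535, adjusted p = 0.00101), and in Clrn1-/- libraries it was -0.06 (95% interval -0.17 to 0.04, adjusted p = 0.409). The double mutants were also lower than each single mutant, 1.59-fold lower than Clrn1-/- (adjusted p = 2.71e-07) and 1.33-fold lower than Clrn2-/- (adjusted p = 4.59e-05). The change in the double mutants exceeded the sum of both single mutant changes, with an interaction term of -0.35 on the log2 scale (SE 0.0758, adjusted p = 0.00479, edgeR).

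Scn1a, on chromosome 2 from 66270778 to 66440840 (minus strand), encodes Nav1.1, an alpha subunit of many central and sensory neurons. Wild-type libraries held 138, 152 and 164 CPM and those of Clrn1-/- mice 170, 167 and 172 CPM. The values were 152, 147 and 143 CPM without clarin-2 and 131, 130 and 138 CPM without either clarin. The Clrn1-/- libraries were all above wild-type, whereas the double mutants touched the lowest wild-type library. Scn1a rose slightly in Clrn1-/- (log2 fold change 0.17, SE 0.0527, adjusted p = 0.0273) and fell slightly in the double mutants (-0.18, SE 0.053, adjusted p = 0.0122, edgeR), both by less than 1.5-fold. In Clrn2-/- its log2 fold change was -0.04 (95% interval -0.14 to 0.07, adjusted p = 0.692). Between Clrn1-/- and the double mutants the difference was -0.35 (adjusted p = 0.000104), and the interaction term was -0.31 (SE 0.0748, adjusted p = 0.00898, edgeR).

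The other 3 alpha subunits of the classical type were rare and lie with Scn1a in a cluster on chromosome 2. Scn2a, which encodes Nav1.2 of immature initial segments and unmyelinated axons, ranged from 11.8 to 13.6 CPM in wild-type libraries, from 12.5 to 15 CPM without clarin-1, from 10.8 to 13.3 CPM without clarin-2 and from 9.93 to 11 CPM in the double mutants. It was lower in the double mutants than in wild-type without overlap (log2 fold change -0.29, SE 0.0949, adjusted p = 0.026). Scn3a, which encodes the largely embryonic channel Nav1.3, measured 3.43, 3.1 and 3.19 CPM in wild-type and 1.84, 2.26 and 2.42 CPM in the double mutants, with counts of 56 to 94 reads per double mutant library. It fell 1.48-fold there, just under the required 1.5-fold (log2 fold change -0.57, SE 0.155, adjusted p = 0.00896, edgeR). Scn9a, which encodes Nav1.7 of peripheral sensory neurons, lay between 2.72 and 4.65 CPM in all 12 libraries, and its log2 fold change in the double mutants was -0.12 with a 95% interval from -0.47 to 0.23.

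Scn9a called for a separate look by strand. The library kit keeps strand, and on the opposite strand of 8 members lay at most 8.03% of the reads, but for Scn9a between 87.3% and 91.7%. Gm13629, an annotated antisense gene, lies on the other strand of chromosome 2 between 66440880 and 66546026, overlaps Scn9a by 65947 bases with 180 bases exon on exon, and begins 43 bases from the RefSeq start of Scn1a, so that 208 bases of the Scn1a window printed above belong to its exon. Reads opposite to Scn9a amounted to 31.5, 29.3 and 33.6 CPM in wild-type and 23.5, 24.4 and 25.2 CPM in double mutant libraries, against 3.88, 3.29 and 3.77 and 3.41, 3.27 and 3.38 CPM on the sense strand. Gm13629 itself, which was added after its overlap was found, measured 25.8, 26.9 and 29.1 CPM in wild-type and 17.8, 18.8 and 20.2 CPM in the double mutants. It was lower in the double mutants by 1.44-fold (log2 fold change -0.52, adjusted p = 4.97e-05, edgeR), with no such change past the adjusted p in Clrn1-/- (-0.09) or Clrn2-/- (-0.08). A count without strand mixes both transcripts at this locus.

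**Figure D2:**
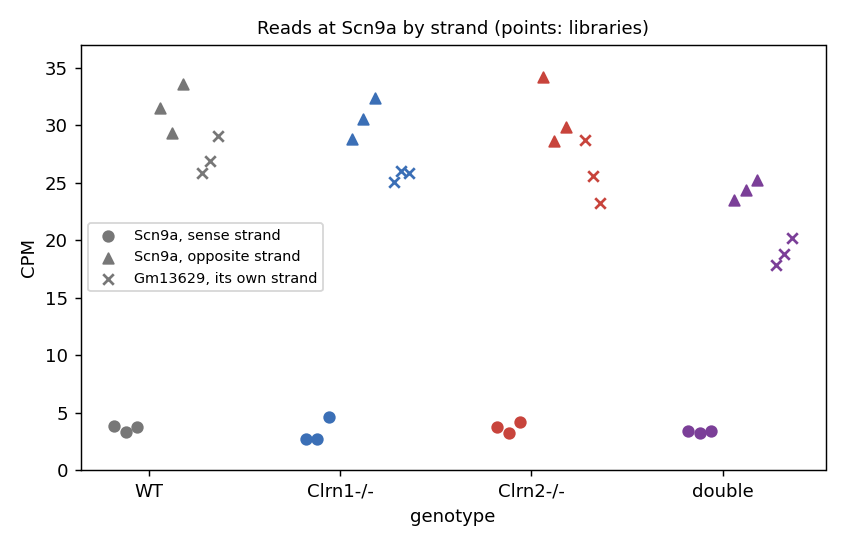
CPM of reads on the sense strand of Scn9a (circles), on its opposite strand (triangles) and on the own strand of the antisense gene Gm13629 (crosses) in each of the 12 libraries, by genotype. Sense reads stay between 2.72 and 4.65 CPM, whereas opposite-strand reads and Gm13629 are lower in the double mutants than in every wild-type library.

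Scn7a, on chromosome 2 from 66673425 to 66784914 (minus strand), was the only member that rose in all 3 mutants. It stood at 12.8, 11.2 and 13.6 CPM in the wild-type libraries, at 18.2, 16.9 and 16.5 CPM without clarin-1 and at 15.5, 17.2 and 17.1 CPM without clarin-2. In the double mutants it reached 20, 23.2 and 21.1 CPM. Both single mutants lay above wild-type and overlapped each other, and the double mutants lay above both. The log2 fold change against wild-type was 0.45 (SE 0.0815, adjusted p = 0.000698) in Clrn1-/-, 0.40 (SE 0.0818, adjusted p = 0.00352) in Clrn2-/- and 0.78 (SE 0.0808, adjusted p = 1.79e-06, edgeR) in the double mutants, where it reached 1.71-fold and was called. The double mutants exceeded Clrn1-/- by 0.32 (adjusted p = 0.00548) and Clrn2-/- by 0.37 (adjusted p = 0.00263) on the log2 scale. An interaction was not detected for Scn7a (-0.08, 95% interval -0.31 to 0.14, adjusted p = 0.686, edgeR).

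Of the beta subunits, Scn4b, on chromosome 9 from 45138395 to 45154152 (plus strand), was the most abundant member in every genotype. Its product carries the peptide that blocks the open pore and gives rise to resurgent sodium current. Wild-type libraries held 510, 518 and 583 CPM of Scn4b, Clrn1-/- libraries 571, 554 and 539 CPM and Clrn2-/- libraries 609, 556 and 514 CPM. Double mutant libraries held 363, 364 and 382 CPM. The first 3 genotypes overlapped one another and every double mutant library lay below all 9 of their libraries. Against wild-type Scn4b fell 1.45-fold in the double mutants, under the required 1.5-fold (log2 fold change -0.54, SE 0.0626, adjusted p = 5.33e-06). Against Clrn1-/- it fell by 0.59 (adjusted p = 4.28e-06) and against Clrn2-/- by 0.60 (adjusted p = 6.1e-06, edgeR) on the log2 scale, just past 1.5-fold. Each of these calls was lost, with the adjusted p kept, when replicate 1 of Clrn2-/- was left out (-0.58 against Clrn1-/- and -0.54 against Clrn2-/-), and the call against Clrn1-/- also without replicate 1 of Clrn1-/- or of the double mutants, at -0.58 each. In the single mutants the log2 fold changes of Scn4b were 0.05 (95% interval -0.08 to 0.17) and 0.06 (-0.06 to 0.18). The interaction term of Scn4b, -0.64 (SE 0.0883, adjusted p = 0.00015), was the one among the 9 that passed both the adjusted p and 1.5-fold, and without replicate 1 of Clrn2-/- it was -0.58 and under 1.5-fold.

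Scn2b, whose product is bound to the alpha subunit by a disulfide bridge, lay between 15.2 and 20.2 CPM across the 12 libraries, and Scn3b, whose product binds without one, between 2.56 and 4.66 CPM. Neither passed the adjusted p in any of the 7 contrasts of the main fit. Scn2b came close in the double mutants against Clrn1-/- (log2 fold change -0.23, adjusted p = 0.0514, edgeR) and passed there in 11 of 21 alternatives. For Scn2b the log2 fold change in the double mutants was -0.06 (95% interval -0.22 to 0.11), an interval that stays within 1.5-fold. For Scn3b it was 0.23 (95% interval -0.09 to 0.55), and the wild-type libraries, at 3.57, 3.34 and 3.01 CPM, overlapped the double mutant libraries, at 4.66, 3.24 and 3.76 CPM.

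**Figure D3:**
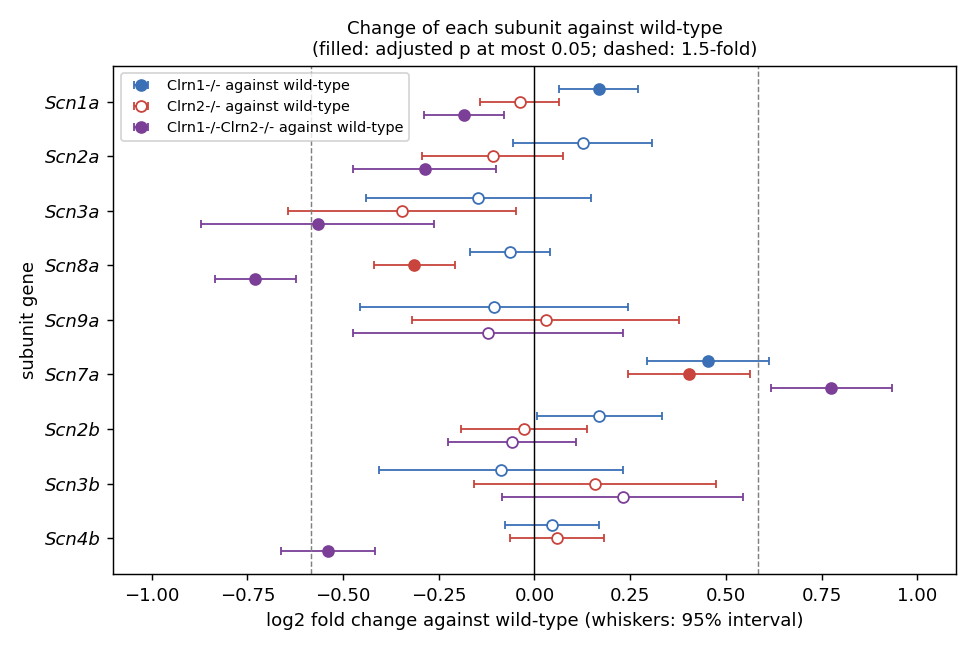
Log2 fold change of the 9 subunits (horizontal axis) in each mutant against wild-type, from the edgeR fit of all 12 libraries; whiskers are 95% intervals, filled points passed an adjusted p of 0.05 and dashed lines mark 1.5-fold. In the double mutants Scn8a (-0.73) and Scn7a (0.78) lie beyond 1.5-fold, and Scn3a (-0.57) and Scn4b (-0.54) lie just inside it.

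Counted over the 9 members, none was called in Clrn1-/- against wild-type, where 7.22% of the 19052 genes tested were called, and none in Clrn2-/-, where 2.66% were. At the adjusted p alone, 2 members were higher in Clrn1-/- (Scn1a and Scn7a), where 13.6% of all genes were. In Clrn2-/- 1 was higher (Scn7a, beside 7.14% of all genes) and 1 lower (Scn8a, beside 7.07%). In the double mutants against wild-type Scn8a was called lower, 1 of 9 beside 4.02% of all genes, and Scn7a higher, 1 of 9 beside 5.88%, with 9.9% of all genes called in either direction. At the adjusted p alone 5 members were lower (Scn1a, Scn2a, Scn3a, Scn8a and Scn4b) beside 17.9% of all genes, and Scn7a was higher, beside 19.1%. The libraries of 5 members did not overlap with wild-type, beside 48.2% of all genes. The median log2 fold change of the members was 0.05 in Clrn1-/-, -0.03 in Clrn2-/- and -0.18 in the double mutants, while that of all genes was 0 in each to 2 decimals. A single call in 9 is near these backgrounds and is no result about the group, while 5 of 9 lower at the adjusted p describes these genes only.

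Between the mutants, Scn8a and Scn4b were called lower in the double mutants than in Clrn1-/- (2 of 9, beside 2.61% of all genes called lower), and Scn4b alone was lower than in Clrn2-/- (1 of 9, beside 1.43%). None of the members was called between Clrn1-/- and Clrn2-/- (4.73% of all genes were), where Scn8a was higher in Clrn1-/- by 0.25 (adjusted p = 0.00437) and Scn1a by 0.21 (adjusted p = 0.0127, edgeR) on the log2 scale. The interaction was called for Scn4b alone (1 of 9, beside 1.92% of all genes called negative) and passed the adjusted p for Scn1a, Scn8a and Scn4b, all negative, beside 8.06% of all genes. These contrasts share libraries with one another.

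The summed level of the alpha subunits was lower in every Clrn2-/- and double mutant library than in every wild-type library, but not in Clrn1-/-, and it was not tested. The summed level of the 6 alpha members was 39.3 ± 1.56 CPM per kilobase (SD, n = 3) in wild-type libraries, 40.6 ± 0.601 without clarin-1, 35 ± 1.73 without clarin-2 and 29.7 ± 0.487 without both. Scn8a made up 57.2% ± 1.6 of this sum in wild-type libraries, 52.8% ± 1.45 without clarin-1, 51.6% ± 1.85 without clarin-2 and 45.7% ± 0.819 in the double mutants, so that its share was lower in each mutant than in every wild-type library. Scn1a made up 34.5% ± 1.71 in wild-type and 40.2% ± 0.733 in the double mutants, and Scn7a 4.35% ± 0.349 and 9.86% ± 0.771. Scn2a kept a share between 2.4% and 3.14% in all 12 libraries. Shares of one sum are not independent, and lengths are those of all annotated exons merged, which treats every isoform alike. The summed beta members fell from 112 ± 7.75 to 78.5 ± 1.82 CPM per kilobase between wild-type and the double mutants, and Scn4b remained at 96.1% ± 0.584 and 94.5% ± 0.63 of that sum.

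**Figure D4:**
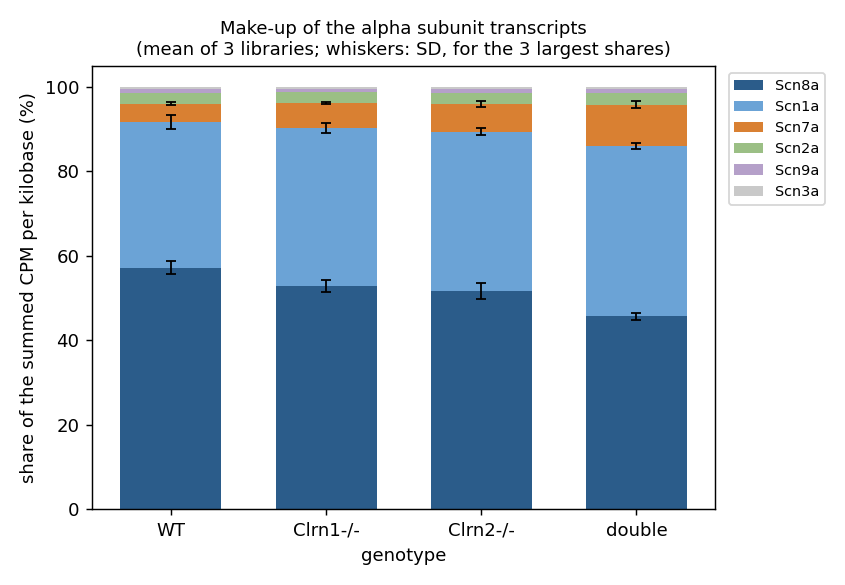
Share of each alpha subunit in the summed CPM per kilobase of the 6 alpha members (stacked bars, percent, mean of 3 libraries per genotype); whiskers give the SD of the shares of Scn8a, Scn1a and Scn7a. The Scn8a share steps down from 57.2% in wild-type to 45.7% in the double mutants, while those of Scn1a and Scn7a grow to 40.2% and 9.86%.

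Neuron markers were lower in the double mutants, as were Scn8a and Scn4b, but the markers and the subunits parted in Clrn1-/-. In bulk tissue, fewer cells of a type and less RNA per cell cannot be told apart. The 21 neuron markers summed to 18260 to 20205 CPM in wild-type libraries, 16172 to 16890 without clarin-1, 15902 to 18460 without clarin-2 and 12504 to 12882 CPM in the double mutants. In the double mutants 7 of the 21 were called lower, beside 4.02% of all genes, and 2, Prph and Gap43, higher, beside 5.88%. Their median log2 fold change was -0.50. In Clrn1-/- 11 of the 21 markers were lower at the adjusted p, beside 13.3% of all genes, with a median of -0.20, while none of the 9 subunits was lower there. The markers of myelinating Schwann cells did not follow, with sums of 17154 to 17180 CPM in wild-type and 15979 to 17796 CPM in the double mutants. None of these 10 was called there, beside 9.9% of all genes. Set against the mean log2 CPM of the neuron markers in the same library, Scn8a was still lower in every Clrn2-/- library (-0.25) and in every double mutant library (-0.37) than in wild-type, and Scn4b in every double mutant library (-0.18). For Scn4b this depends on the average used, since its log2 fold change in the double mutants (-0.54) was close to the median of the markers (-0.50). On the same scale Scn1a was higher than wild-type in every Clrn1-/- library (0.32) and every double mutant library (0.18), and Scn7a was higher by 1.14 in the double mutants. Of the rare members, every library of Scn3a was lower without clarin-2 (-0.27) and without both clarins (-0.21), and every double mutant library was higher for Scn3b (0.58) and Scn9a (0.25). Scn2a and Scn2b were higher in every Clrn1-/- library (0.27 and 0.33) and overlapped wild-type in the other mutants. These are differences in log2 units with no test, and the part of the neuron markers in the result was not tested. Across the 12 libraries, which share genotype differences, Pearson's r was also taken with the log2 of the summed CPM of the neuron markers. It was 0.917 for Scn8a, 0.9 for Scn4b, 0.627 for Scn1a and -0.874 for Scn7a. It was 0.707 for Scn3a, 0.619 for Scn2a, 0.228 for Scn9a, 0.192 for Scn2b and -0.386 for Scn3b.

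Summed markers of 5 other cell types were higher in every double mutant library than in every wild-type library, beside Scn7a. In wild-type and double mutant libraries respectively, the 8 supporting cell markers summed to 1586 to 1779 and 2547 to 2728 CPM. Epyc (means of 515 and 1043 CPM) and Otoa (143 and 431 CPM) led this rise, while Prox1 was called lower (104 and 58.5 CPM). At the adjusted p, 5 of the 8 were higher and 1 lower. The 6 fibroblast markers summed to 1648 to 1985 and 2434 to 2621 CPM, with 5 higher. The 6 macrophage markers summed to 124 to 160 and 192 to 226 CPM, with all 6 higher. The 10 hair cell markers summed to 466 to 534 and 595 to 623 CPM, with 5 higher and 1 lower at the adjusted p, and the 5 endothelium markers to 192 to 215 and 236 to 241 CPM, with 1 higher. These counts at the adjusted p stand beside 19.1% of all genes higher and 17.9% lower, and 1 of 5 is near that share. In Clrn1-/- the fibroblast sum (2113 to 2336 CPM) and the macrophage sum (195 to 205 CPM) were above every wild-type library and the other 3 overlapped wild-type, and in Clrn2-/- all 5 did. The 8 markers of nerve glia, a known site of Nax, summed to 6279 to 7398 CPM in wild-type and 5613 to 6210 CPM in the double mutants. Of these 8, 1 was called in each direction, beside 5.88% of all genes called higher and 4.02% lower. The part of these markers in the rise of Scn7a was not tested.

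**Figure D5:**
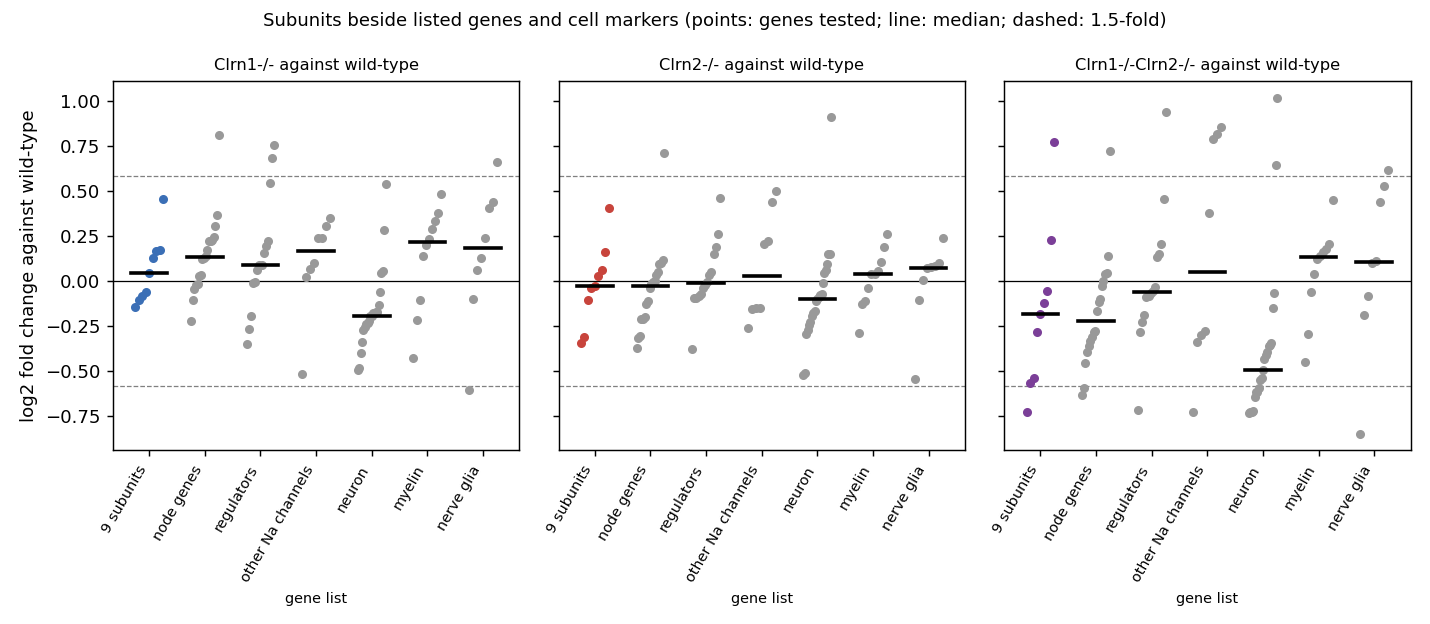
Log2 fold change of the 9 subunits (coloured) and of the tested genes of 3 related lists and 3 marker lists (grey) in each mutant against wild-type; every point is a gene, black lines are list medians and dashed lines mark 1.5-fold. In the double mutants the median is -0.18 for the subunits, -0.22 for the node genes, -0.50 for the neuron markers and 0.13 for the myelin markers.

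The genes whose levels were most like those of the members called against wild-type were sought among 15405 genes over the 12 libraries, as a description. For Scn8a they were Ptprs (r = 0.994), a receptor-type tyrosine phosphatase, Chn1 (0.99), the Rac regulator alpha-chimaerin, and Unc13a (0.987), the vesicle priming factor Munc13-1. For Scn7a they were Mob1a (0.986), an adaptor of the Hippo kinases, Sox4 (0.983), a transcription factor, and Cdh6 (0.976), a cadherin. All points share the 4 genotypes and their libraries. Among the members themselves r was 0.873 between Scn8a and Scn4b, 0.766 between Scn8a and Scn1a and -0.807 between Scn8a and Scn7a.

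The proteins that gather sodium channels at initial segments and nodes were examined next, as a list of 18 genes that were all tested. In Clrn1-/-, 9 of the 18 were higher and 1 lower at the adjusted p alone, with a median log2 fold change of 0.13, beside 13.6% and 13.3% of all genes. In Clrn2-/- 1 was higher and 5 lower, with a median of -0.03, beside 7.14% and 7.07%. In the double mutants 2 were higher and 10 lower, with a median of -0.22, beside 19.1% and 17.9%. At the 1.5-fold rule Sptbn4, the beta-IV spectrin that anchors nodal channels, was called lower in the double mutants, from 191 ± 17.3 to 126 ± 3.95 CPM (log2 fold change -0.60, adjusted p = 1.29e-05, edgeR). Scaling by library size alone (-0.56) or leaving out wild-type replicate 3 (-0.53) put Sptbn4 under 1.5-fold with the adjusted p kept. Epb41l3, the paranodal protein 4.1B, was called lower too, from 428 ± 7.62 to 275 ± 3.35 CPM (-0.64, adjusted p = 2.28e-08, edgeR). Gldn, gliomedin, a ligand through which Schwann cells cluster nodal channels, rose in all 3 mutants, from 154 ± 14 CPM in wild-type to 270 ± 19.7 in Clrn1-/-, 251 ± 8.94 in Clrn2-/- and 254 ± 7.74 CPM in the double mutants. Its log2 fold changes were 0.81, 0.71 and 0.73, each called, with an adjusted p of at most 3.74e-06 (edgeR).

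Of 14 genes that regulate sodium channels, Fgf12, an intracellular fibroblast growth factor that binds the channel tail, fell in the double mutants from 220 ± 17 to 133 ± 3.29 CPM (-0.72, adjusted p = 1.29e-07, edgeR). It was lower at the adjusted p in Clrn1-/- (-0.35) and Clrn2-/- (-0.38) also. Fgf14, of the same family, was rare, at 1.4 ± 0.248 CPM in wild-type, and rose to 2.36 ± 0.264 in Clrn1-/- (0.76, adjusted p = 0.00524) and 2.68 ± 0.0676 CPM in the double mutants (0.94, adjusted p = 0.000563, edgeR). In counts without strand the Fgf14 values were 0.37 and 0.58 and neither was called. Fgf13 was called in Clrn1-/- alone, from 1.58 ± 0.464 to 2.51 ± 0.479 CPM (0.68, adjusted p = 0.0467, edgeR), and 10 of 21 alternatives did not call it, at log2 fold changes of 0.46 to 0.77 and adjusted p up to 0.187. Without wild-type replicate 3 or Clrn1-/- replicate 3 it was 0.46 and 0.51. Of the 14 regulators 2 were called in Clrn1-/-, none in Clrn2-/- and 2 in the double mutants, with medians of 0.09, -0.01 and -0.06. These counts stand beside 7.22%, 2.66% and 9.9% of all genes called in the same comparisons, and 2 of 14 is near them.

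Of a list of 11 other sodium channel genes, 8 passed the filter. Scn4a, Scn10a and Scn11a, which encode the muscle channel and the tetrodotoxin-resistant channels of pain fibres, did not, with at most 12 counts in any library. Called higher in the double mutants, beside 5.88% of all genes, were the 3 subunits of the epithelial sodium channel, which is not gated by voltage: Scnn1a rose from 5.93 ± 0.696 to 10.2 ± 1.19 CPM (0.79, adjusted p = 6.45e-05), Scnn1b from 11.2 ± 0.525 to 19.7 ± 0.575 CPM (0.82, adjusted p = 1.68e-07) and Scnn1g from 1.9 ± 0.289 to 3.45 ± 0.743 CPM (0.86, adjusted p = 0.0013, edgeR). Tmem28, also named Fam155b, a relative of the NALCN leak channel subunit Fam155a, was called lower, from 10.9 ± 1.43 to 6.55 ± 0.475 CPM (-0.73, adjusted p = 7.53e-05, edgeR). The other 4 belong to the NALCN leak channel complex and passed the adjusted p there without reaching 1.5-fold, Nalcn higher (0.38) and Unc79 (-0.30), Unc80 (-0.34) and Fam155a (-0.28) lower. None of the 8 was called in either single mutant, save that 1 was called lower in Clrn1-/- when wild-type replicate 1 was left out. The median log2 fold change of the 8 was 0.17 in Clrn1-/-, 0.03 in Clrn2-/- and 0.05 in the double mutants.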

How the data were processed

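Poly-A RNA from organ of Corti was prepared with a directional kit and sequenced as paired reads. Per the study's methods, gene counts were obtained by the authors with STAR and Gencode vM24, and the deposited tables hold raw counts without strand and for each strand. The submitters' processing notes also name GRCm38.p6. The reverse-strand column was used (95.2% to 95.6% of stranded counts). Reads without a single gene (13.5% to 15.8%) were left out of library sizes and tests.

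Genes were filtered with filterByExpr at a minimum count of 10, leaving 19052 genes, and scaled by TMM. Genotypes were compared in 1 fit of all 12 libraries with the quasi-likelihood test of edgeR 4.0.16 in R 4.3.3, with Benjamini-Hochberg adjustment over all genes tested. Calls required an adjusted p no higher than 0.05 together with a 1.5-fold change. Intervals are the log2 fold change ± 1.96 SE. CPM were computed on effective library sizes, the counts on tested genes times the TMM factor (0.963 to 1.02). Logarithms for likeness and marker levels used a prior count of 2. Exon lengths and positions came from an earlier Gencode release than that of the counts, on the same genome build. The script was tested on simulated data. limma 3.58.1 with voom, the study's own test, and DESeq2 1.42.0 were alternatives.

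The text names all 9 members, the called genes of 3 lists (up to 4 per direction and mutant), and the 3 genes most like each member called against wild-type. Members, lists and markers were chosen with earlier results of these data known. Some genes listed as other sodium channel genes at the outset are not reported here and were left out of that list, though not out of the fit. Fam155b was matched under its older symbol, Tmem28, and the leak channel genes that were not called were named, both after the values were seen. Deviations of same-numbered libraries from their group means correlated above 0.1 in all 3 pairs for wild-type and Clrn1-/- only (0.269, 0.126 and 0.105). Across 18 pairs the range was -0.277 to 0.301 over 12453 genes. The labels give no batch. No replicate pair agreed within sampling noise.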

Additional observations from a re-analysis of the deposited data

Results flagged for a closer look

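The difference that went with the loss of clarin-2 was not the same with and without clarin-1 for 3 subunits, by the interaction term of the edgeR fit over all genes. The term includes the wild-type libraries, whose breeding cannot be told apart from genotype. On the log2 scale the term was -0.64 for Scn4b (adjusted p = 0.00015), -0.35 for Scn8a (adjusted p = 0.00479) and -0.31 for Scn1a (adjusted p = 0.00898). Scn4b differed by 0.06 between Clrn2-/- and wild-type and by -0.59 between the double mutants and Clrn1-/-, Scn8a by -0.31 and -0.67, and Scn1a by -0.04 and -0.35. Over all genes tested, 8.06% were negative and passed the adjusted p for this term.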

How the results depend on the processing

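Scn8a and Scn7a were called in the double mutants against wild-type under all 21 alternatives, with log2 fold changes of -0.75 to -0.69 and 0.69 to 0.83. Without the fold minimum the called subunits numbered 2 in Clrn1-/-, 2 in Clrn2-/- and 6 in the double mutants against wild-type, 5 and 3 in the double mutants against Clrn1-/- and Clrn2-/-, 2 between the single mutants and 3 for the interaction. Leaving out 1 library at a time gave 0 to 0, 0 to 0, 2 to 3, 1 to 2, 0 to 1, 0 to 0 and 0 to 1 in the same order. The third call against wild-type was Scn3a, at -0.59 to -0.66 without wild-type replicate 2 or 3 or double mutant replicate 2 or 3. Scn1a in Clrn1-/- passed the adjusted p in 17 of 21 alternatives and Scn2a in the double mutants in 18 of 21. limma-voom, DESeq2, other scalings, no filter, counts without strand and a fit of the compared genotypes alone gave the same counts of called subunits.

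With the replicate block the counts stayed at 0, 0, 2, 2, 1, 0 and 1, and no call of a subunit changed. Wild-type and Clrn1-/- were the one pair of genotypes whose replicate numbers paired.

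Changes of sign occurred only in values that no setting called. Scn2b in Clrn2-/- against wild-type (-0.03) was 0.01 by library size alone and 0 in counts without strand, and Scn9a in the double mutants against Clrn1-/- (-0.02) was 0.02 with limma-voom and 0 with the replicate block. With 1 library left out at a time, the range was -0.41 to 0.03 for Scn9a and -0.22 to 0.04 for Scn3b in Clrn1-/- against wild-type. In Clrn2-/- against wild-type it was -0.09 to 0.06 for Scn2b, -0.05 to 0.12 for Scn9a, -0.1 to 0.02 for Scn1a and 0 to 0.12 for Scn4b. In the double mutants it was -0.14 to 0.02 for Scn2b against wild-type, -0.16 to 0.28 for Scn9a against Clrn1-/-, and -0.11 to 0.02 for Scn2b and -0.08 to 0.17 for Scn3b against Clrn2-/-. Between the single mutants it was -0.07 to 0.04 for Scn4b and -0.01 to 0.08 for Scn7a, and for the interaction -0.2 to 0.25 for Scn9a and -0.21 to 0.03 for Scn3a. The cause was not tested. Scn3a, Scn9a and Scn3b rest on 56 to 179 reads per library, which limits what could be detected for them.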
